A study of Mus musculus with 6 samples.

Results

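The p53 target and apoptosis genes are 33 genes that p53 switches on, that hold p53 in check, or that carry out or restrain programmed cell death. They were taken by gene symbol from a count table of 34866 genes, and every one of the 33 had a row. After a filter on low counts 31 of them were among the 15216 genes tested, and Gdf15 and Fas were not. By role they comprise 3 genes of p53 and its regulators, 8 of cell cycle arrest and growth restraint, 16 of cell death, 2 of survival and 4 of DNA repair and the ribosome.

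Forebrain RNA of mouse embryos collected at stage E14.5, counted in embryonic days, was sequenced in 3 mutant-labelled and 3 control libraries. The mutant genotype carries 1 floxed and 1 null allele of Sap130 (f/-) and Emx1-cre, and the control genotype 1 floxed and 1 wild-type allele (f/+) and Emx1-cre, so that both groups hold a floxed allele and the recombinase. The protein product of Sap130 belongs to the Sin3 histone deacetylase complex. Emx1-cre is active in cells of dorsal telencephalic origin, so that ventral forebrain, vessels, blood and meninges keep the floxed allele unrecombined. By genotype, such cells still differ between groups by the null allele, and recombined control cells keep 1 wild-type allele. Controls are described as littermates, the labels do not give the embryo or litter behind a library, and p-values therefore measure the spread between these libraries.

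The transcription factor p53 is kept low in most cells by Mdm2, a ubiquitin ligase that is itself a p53 target, and by its relative Mdm4. DNA damage, replication stress or mitotic delay releases p53, which then switches on genes that halt the cell cycle, such as Cdkn1a, and genes that open the mitochondrial route to death, such as Bbc3, Pmaip1 and Bax. In the embryonic cortex, p53-dependent loss of neural progenitors is a known route to microcephaly.

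The libraries held 20775429 to 25999747 estimated counts. Sap130 itself stood at 84.0 ± 1.10 CPM (a count scaled to library size, SD, n = 3) in controls and at 128.6 ± 7.85 CPM in the mutant-labelled libraries, the opposite of what a deletion would give. Exchanged group labels and transcript of the altered alleles cannot be told apart here. Every direction is that of the libraries as labelled, and an exchange would turn all of them. Sample titles begin with SPF-539 (replicate 1 of each group) or SPF-552 (replicates 2 and 3 of each group). In mutant replicate 1 the level of a gene followed its exon length, with a median of -0.27 on the log2 scale relative to controls over the shortest decile of genes and 0.21 over the longest decile, against -0.02 to 0.04 and -0.07 to 0.06 in the other 5 libraries. All 10 forebrain markers, Emx1 and Lhx2 among them, were detected. Summed over 8 genes each, cortical neuron markers lay at 1543 to 1959 CPM in the mutant-labelled libraries against 2393 to 2502 in controls, and intermediate progenitor markers at 502 to 528 against 685 to 722. Over 10 radial glia markers the sums were 2608 to 2825 against 2220 to 2473 CPM, over 10 diencephalon markers 442 to 559 against 362 to 408, and over 8 ventral forebrain markers 838 to 953 against 689 to 792. Microglia markers (10 genes, 82.8 to 88.0 against 83.2 to 89.2 CPM) and endothelial markers (8 genes, 340 to 354 against 326 to 370 CPM) overlapped between groups. No marker in these lists was at 0 in all libraries. The part of these shifts in the results below was not tested, and in whole tissue fewer cells of a type and less RNA per cell cannot be told apart.

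None of the 31 tested genes passed an FDR of 0.05 under the quasi-likelihood test of edgeR, adjusted by Benjamini-Hochberg over the whole table, against 0.138% of all genes tested. At an unadjusted p under 0.05 there were 8 genes higher in the mutant-labelled libraries and 0 lower. That is 25.8% and 0% of the 31, against 5.22% and 4.38% of all genes tested. The 8 were Sesn2, Ccng1, Zmat3 and Ddit4l of the arrest group and Aen, Eda2r, Apaf1 and Bcl2l11 of the death group. For 9 of the 31 genes, the 8 and Trp53inp1, all 3 labelled mutant values lay above all 3 controls, against 8.17% of all genes, and for 2, Mdm2 and Sesn1, all lay below, against 8.49%. The exact two-sided permutation p of each of these 11 genes was 0.1, the smallest that 3 libraries against 3 allow. The median log2 fold change of the 31 genes was 0.08, with 23 (74.2%) above 0 and 8 below. That of all genes was -0.00031, with 49.9% above 0.

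**Figure D1:**
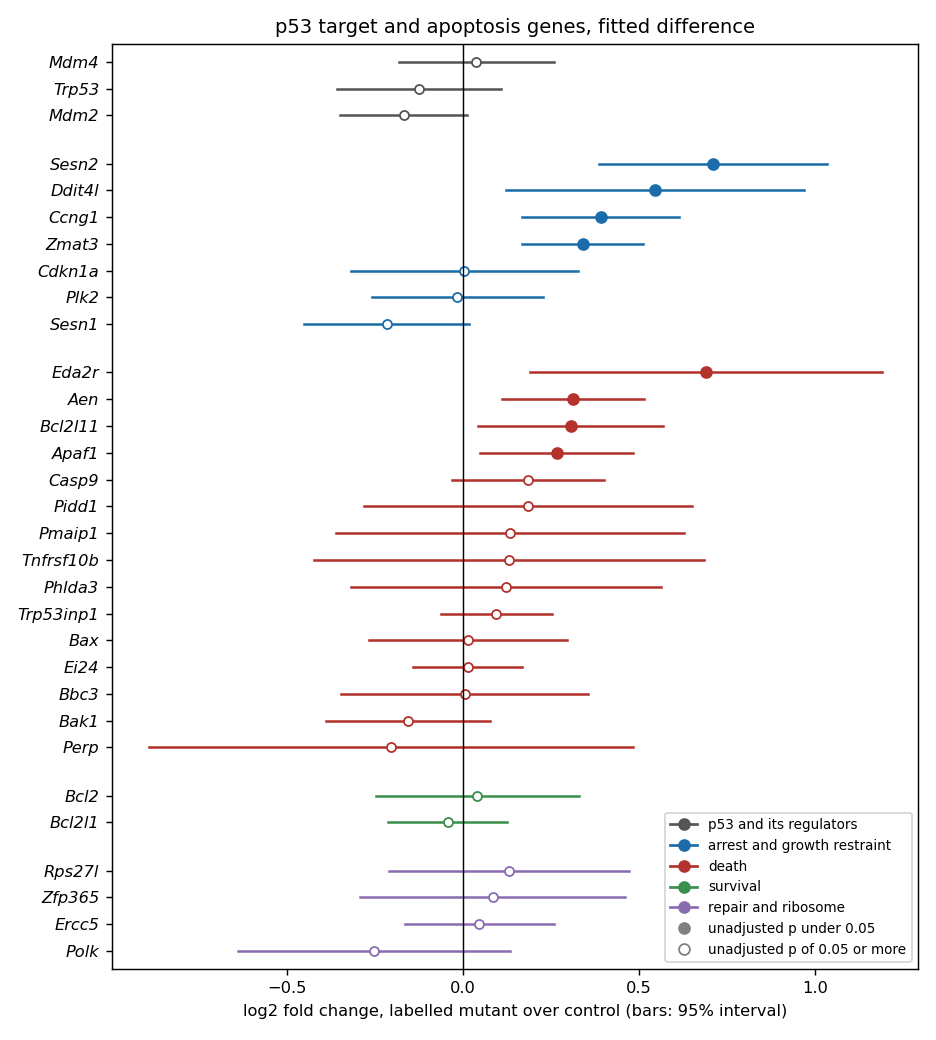
Fitted log2 fold change of the 31 tested genes (x axis, labelled mutant over control) with 95% intervals, grouped and coloured by role. Filled points mark an unadjusted p under 0.05: these are the 8 genes whose interval lies above 0, from Apaf1 at 0.27 to Sesn2 at 0.71, while Cdkn1a, Bbc3, Bax and Ei24 lie within 0.02 of 0.

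Whether calls were made depended on the test and on 1 library. With the title number entered as a replicate block, Sesn2 passed edgeR's quasi-likelihood test (adjusted p = 0.0495), where 0.25% of genes were called higher. Without mutant replicate 1, Sesn2, Ccng1, Zmat3 and Aen passed the same edgeR test (adjusted p = 0.0436, 0.0108, 0.0288 and 0.0194), where 0.712% of genes were called higher. Leaving out any other library gave no member. The count at an unadjusted p under 0.05 was 8 higher and 1 lower (Sesn1) with the block and 7 higher and 1 lower (Mdm2, with Bcl2l11 lost) with an offset for exon length in each library. It was 11 higher in SPF-552 alone and 6 to 9 higher on leaving out 1 library, with 0 lower in both. The share of all genes at that threshold was not counted in these fits. Changes in the count are therefore no result about the members. DESeq2 and edgeR's likelihood-ratio test each called Sesn2 and Zmat3, where 0.572% and 0.407% of genes were called higher, and without the filter edgeR called Sesn2, where 0.206% were.

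Promoters of Ddit4l, Eda2r, Apaf1 and Bcl2l11, which stood higher in the mutant-labelled libraries, are not shown. Those shown were picked by the values of their genes. They are of Sesn2, Ccng1 and Aen, which also stood higher, and of Cdkn1a, the classical arrest target, which did not. Each runs from 250 bases before to 50 bases after an annotated start, from RefSeq on GRCm38.p6, 5′ to 3′ on the gene's strand, and capitals mark matches to the consensus p53 half-site, a palindrome of 10 bases that reads the same on both strands.
Sesn2, chr4:132510407-132510706, minus strand: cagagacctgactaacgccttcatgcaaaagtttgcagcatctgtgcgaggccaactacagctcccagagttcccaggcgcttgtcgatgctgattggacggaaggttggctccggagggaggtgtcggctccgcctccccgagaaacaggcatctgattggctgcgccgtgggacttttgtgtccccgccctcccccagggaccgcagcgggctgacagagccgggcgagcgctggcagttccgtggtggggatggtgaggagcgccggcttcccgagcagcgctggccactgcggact
Ccng1, chr11:40755237-40755536, minus strand: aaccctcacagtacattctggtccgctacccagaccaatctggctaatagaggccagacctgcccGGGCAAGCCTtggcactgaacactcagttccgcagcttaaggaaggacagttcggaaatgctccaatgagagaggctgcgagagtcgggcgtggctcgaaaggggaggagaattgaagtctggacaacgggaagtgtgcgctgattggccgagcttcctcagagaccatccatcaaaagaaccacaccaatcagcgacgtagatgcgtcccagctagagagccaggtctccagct
Aen, chr7:78895808-78896107, plus strand: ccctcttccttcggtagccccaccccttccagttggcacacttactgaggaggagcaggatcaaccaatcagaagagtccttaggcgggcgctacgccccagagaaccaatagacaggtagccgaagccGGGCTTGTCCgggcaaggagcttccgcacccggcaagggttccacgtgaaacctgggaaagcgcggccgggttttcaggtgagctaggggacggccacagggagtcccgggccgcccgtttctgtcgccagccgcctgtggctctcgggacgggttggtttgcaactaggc
Cdkn1a, chr17:29090729-29091028, plus strand: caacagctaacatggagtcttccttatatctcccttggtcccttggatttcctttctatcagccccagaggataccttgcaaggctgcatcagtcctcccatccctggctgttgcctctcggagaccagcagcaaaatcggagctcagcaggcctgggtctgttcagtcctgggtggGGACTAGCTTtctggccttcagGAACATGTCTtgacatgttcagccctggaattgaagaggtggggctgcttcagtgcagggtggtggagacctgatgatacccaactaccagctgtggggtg
The Ccng1 half-site begins 185 bases before the start shown, that of Aen 121 bases before it, and those of Cdkn1a 73 and 51 bases before it. Aen and Cdkn1a each have another annotated start, whose window is not shown. In that of Aen (chr7:78895677-78895976) the same half-site begins 10 bases after the start. That of Cdkn1a (chr17:29093519-29093818) holds no match. The Sesn2 window holds no match. RefSeq promoters were found for 28 of the 33 genes, and not for Zmat3, Trp53inp1, Tnfrsf10b, Perp and Pmaip1. Of their 40 promoters 12 (30.0%) held a half-site, against 8.36% of 32851 promoters of the same length, and Cdkn1a was the one gene with a pair no more than 13 bases apart, which 0.0731% of all promoters hold. The overlapping Aen windows hold the same half-site, and by gene 11 of the 28 held one. The list was made of known p53 targets among others, so this share is no separate result. Among the 7 genes with an unadjusted p under 0.05 and a promoter 3 held a half-site (Aen, Ccng1 and Ddit4l), and among the 21 others 8 did. A match describes the letters and is not a measured binding site.

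The gene of p53 itself and those of its regulators gave no call. Trp53, which encodes p53, stood at 83.9, 72.7 and 83.9 CPM in control replicates 1 to 3 and at 62.7, 76.2 and 82.0 CPM in mutant replicates 1 to 3. Mutant replicate 1 was the lowest of the 6, and the groups overlapped. The log2 fold change was -0.12 with a 95% interval of -0.36 to 0.11, and it was 0.02 within SPF-552 alone. Mdm2, the ligase that degrades p53 and is induced by it, stood at 62.0, 58.5 and 63.9 CPM in controls and at 54.4, 52.0 and 57.8 CPM in the mutant-labelled libraries. All labelled mutant values lay below all controls, with a log2 fold change of -0.17 and a standard error of 0.082 (adjusted p = 0.560 by edgeR). Per kilobase of exon, Trp53 exceeded Mdm2 by 1.64 ± 0.070 times in controls and by 1.69 ± 0.214 times in the mutant-labelled libraries (SD, n = 3 each). Mdm4, which binds and masks the p53 activation domain, ranged from 81.2 to 98.7 CPM in controls and from 84.5 to 103.7 CPM in the mutant-labelled libraries.

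Genes of arrest and growth restraint divided into 2 sets, 4 that stood higher in the mutant-labelled libraries and 3 that did not. Sesn2 (GRCm38 chromosome 4, 132492032 to 132510501, minus strand) encodes a sestrin, a stress-induced restraint on mTORC1 signalling that responds to p53 and also to the ATF4 branch of the integrated stress response. It stood at 11.2, 13.9 and 10.4 CPM in controls and at 21.3, 20.2 and 16.4 CPM in the mutant-labelled libraries. Every labelled mutant library lay above every control, a 1.64-fold difference (log2 fold change 0.71, standard error 0.149, adjusted p = 0.109 by edgeR). Ccng1 (chromosome 11, 40748552 to 40755311, minus strand) encodes cyclin G1, a p53-induced cyclin that feeds back on Mdm2. Its levels were 32.1, 34.1 and 31.9 CPM in controls and 38.2, 43.1 and 47.4 CPM in the mutant-labelled libraries. The spread was wider in the second group, which still lay wholly above the first (log2 fold change 0.39, standard error 0.102, adjusted p = 0.202 by edgeR).

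Zmat3 (chromosome 3, 32334792 to 32366014, minus strand), which encodes an RNA-binding zinc-finger protein and is a p53 target, stood at 57.6, 54.6 and 59.3 CPM in controls and at 72.1, 69.7 and 75.3 CPM in the mutant-labelled libraries. The 2 groups were tight and apart (log2 fold change 0.34, standard error 0.079, adjusted p = 0.156 by edgeR). With an offset for exon length in each library its log2 fold change was 0.27. Ddit4l (chromosome 3, 137621612 to 137628333, plus strand), an mTORC1 inhibitor, was low throughout, with controls at 4.29, 3.25 and 4.14 CPM and mutant-labelled libraries at 5.21, 5.49 and 6.38 CPM, again without overlap (log2 fold change 0.55, standard error 0.194).

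The other 3 tested arrest genes had log2 fold changes of 0.0048 (Cdkn1a), -0.015 (Plk2) and -0.22 (Sesn1). Cdkn1a, which encodes the cyclin-dependent kinase inhibitor p21, stood at 24.4, 17.7 and 16.8 CPM in controls and at 18.4, 19.7 and 21.0 CPM in the mutant-labelled libraries. The highest value of all was a control, and the 95% interval of the log2 fold change was -0.32 to 0.33. Plk2, a p53-responsive polo-like kinase, ranged from 115.9 to 138.8 CPM in controls and from 111.0 to 148.3 CPM in the mutant-labelled libraries. Sesn1, the second sestrin and also a p53 target, stood at 36.8, 34.3 and 38.4 CPM in controls and lower at 27.5, 33.2 and 33.6 CPM in the mutant-labelled libraries, with no overlap (log2 fold change -0.22, 95% interval -0.45 to 0.02). Gdf15, a stress-induced secreted factor, had 2, 0 and 0 counts in controls and 0, 0 and 3 in the mutant-labelled libraries, which is too few for a comparison.

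**Figure D2:**
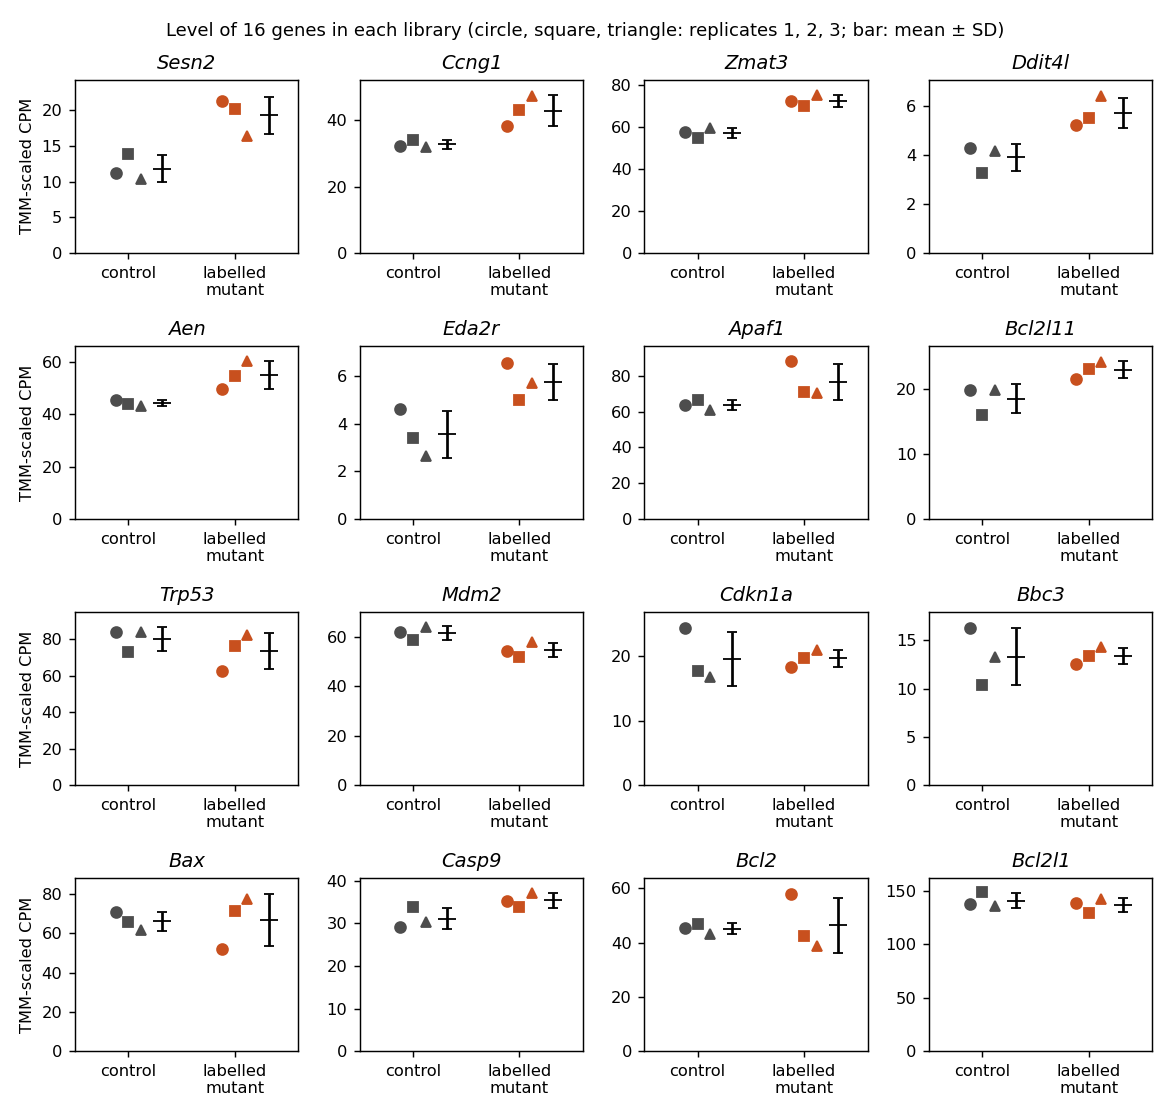
TMM-scaled CPM (y axis, from 0) of 16 genes in the 3 controls and the 3 libraries labelled mutant, 1 point per library, with mean ± SD beside each group. In the upper 8 panels the groups do not overlap, whereas Cdkn1a, Bbc3 and Bax overlap and mutant replicate 1 is the lowest library for Bax and the highest for Bcl2.

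Of the 15 tested death genes 13 (86.7%) had a log2 fold change above 0, against 49.9% of all genes tested, and 4 (26.7%) stood higher at an unadjusted p under 0.05, against 5.22%. Bbc3, Ei24 and Bax of the 13 lay near 0, at 0.0054, 0.014 and 0.015. On leaving out 1 library, these genes, Tnfrsf10b, Phlda3 and Pidd1 could fall below 0, and Perp could rise above 0. Among the receptors, Eda2r (chromosome X, 97333840 to 97377216, minus strand), the ectodysplasin A2 receptor and a p53 target, stood at 4.62, 3.42 and 2.66 CPM in controls and at 6.54, 5.01 and 5.70 CPM in the mutant-labelled libraries. The groups did not overlap, and the log2 fold change of 0.69 had a standard error of 0.229 (adjusted p = 0.331 by edgeR). Tnfrsf10b, a TRAIL receptor, ranged from 3.03 to 3.80 CPM in controls and from 2.62 to 5.01 CPM in the mutant-labelled libraries. Fas, the Fas ligand receptor, had 1, 6 and 3 counts in controls and 1, 2 and 7 in the mutant-labelled libraries and was not tested.

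Of the 3 BH3-only genes among the 33, whose products start the mitochondrial route, 1 stood wholly above the controls, as did 8.17% of all genes tested. Bmf, Hrk, Bid and Bad, BH3-only genes outside the 33, overlapped between groups (log2 fold changes 0.22, -0.21, -0.16 and -0.27). Bcl2l11 (chromosome 2, 128126038 to 128162547, plus strand), which encodes Bim, stood at 19.8, 15.9 and 19.8 CPM in controls and at 21.5, 23.1 and 24.1 CPM in the mutant-labelled libraries. These did not overlap (log2 fold change 0.31, standard error 0.120, adjusted p = 0.440 by edgeR). Bbc3, which encodes Puma, stood at 16.3, 10.4 and 13.3 CPM in controls and at 12.5, 13.4 and 14.3 CPM in the mutant-labelled libraries. All 3 labelled mutant values lay within the range of the controls, with a log2 fold change of 0.0054 and a 95% interval of -0.35 to 0.36. Pmaip1, which encodes Noxa, ranged from 2.54 to 2.58 CPM in controls and from 2.53 to 3.13 CPM in the mutant-labelled libraries.

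The pore-forming effector Bax stood at 71.0, 66.0 and 61.5 CPM in controls and at 52.1, 71.2 and 77.5 CPM in the mutant-labelled libraries. Mutant replicate 1 was the lowest library and mutant replicates 2 and 3 the highest, so the mean difference of 0.02 on the log2 scale (95% interval -0.27 to 0.30) joined a log2 ratio of -0.44 within SPF-539 and 0.22 within SPF-552. Bax has 1576 bases of exon, within the shortest decile of genes (up to 1718 bases) that stood low in mutant replicate 1, and with the exon-length offset its log2 fold change was 0.089 (adjusted p = 0.810 by edgeR). Bak1, the second effector, ranged from 24.0 to 28.9 CPM in controls and from 23.0 to 24.5 CPM in the mutant-labelled libraries, and its exons overlap those of Ggnbp1 on the other strand, which this library kit cannot separate.

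Downstream of the pore, Apaf1 (chromosome 10, 90989311 to 91082770, minus strand), the scaffold of the apoptosome, stood at 63.6, 66.4 and 61.0 CPM in controls and at 88.2, 70.7 and 70.7 CPM in the mutant-labelled libraries. Mutant replicate 1 stood far above the rest, and the log2 fold change of 0.27 was 0.15 without it. The gene has 9028 bases of exon, and with the exon-length offset the log2 fold change was 0.21. Casp9, the protease that Apaf1 activates, stood at 29.2, 33.9 and 30.3 CPM in controls and at 35.3, 33.7 and 37.2 CPM in the mutant-labelled libraries. A single pair of values overlapped (log2 fold change 0.19, 95% interval -0.03 to 0.40), and its exons overlap those of Cela2a and Ctrc on the other strand. Aen (chromosome 7, 78895854 to 78911209, plus strand), a p53-induced nuclease, stood at 45.3, 44.0 and 42.9 CPM in controls and at 49.5, 54.7 and 60.2 CPM in the mutant-labelled libraries. The groups did not overlap (log2 fold change 0.31, standard error 0.093, adjusted p = 0.272 by edgeR).

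Other p53 targets of the death group gave no call. Trp53inp1, a stress-induced p53 cofactor, stood at 113.7, 117.7 and 123.0 CPM in controls and at 127.8, 125.8 and 125.1 CPM in the mutant-labelled libraries, without overlap and with a log2 fold change of 0.10. Ei24, an endoplasmic reticulum protein, ranged from 129.0 to 130.6 CPM in controls and from 127.4 to 134.6 CPM in the mutant-labelled libraries. Phlda3, an inhibitor of Akt, and Pidd1, the core of the caspase-2 platform, had log2 fold changes of 0.12 and 0.18 with intervals of -0.32 to 0.56 and -0.28 to 0.65. Perp, a membrane protein, ranged from 1.54 to 3.30 CPM over all libraries.

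Both survival genes overlapped between groups. Bcl2 stood at 45.3, 47.0 and 43.2 CPM in controls and at 57.9, 42.5 and 38.9 CPM in the mutant-labelled libraries, where the order within that group was the reverse of that of Bax and mutant replicate 1 was highest. Bcl2 has 9157 bases of exon. Bcl2l1, which encodes Bcl-xL, ranged from 136.1 to 149.0 CPM in controls and from 129.6 to 142.2 CPM in the mutant-labelled libraries. Per kilobase of exon, Bax exceeded Bcl2 by 9.10, 8.16 and 8.29 times in controls and by 5.24, 9.72 and 11.6 times in the mutant-labelled libraries. Bax exceeded Bcl2l1 by 1.37 ± 0.111 times in controls and 1.42 ± 0.289 times in the mutant-labelled libraries (SD, n = 3 each). Neither ratio separated the groups.

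Genes of repair and the ribosome gave no call. Ercc5, an endonuclease of nucleotide excision repair, and Zfp365 had log2 fold changes of 0.05 and 0.08. Polk, a translesion DNA polymerase, ranged from 5.69 to 7.37 CPM in controls and from 4.80 to 5.84 CPM in the mutant-labelled libraries (log2 fold change -0.25, 95% interval -0.64 to 0.13). Rps27l, a p53-induced relative of the ribosomal gene Rps27, stood at 29.1, 29.5 and 29.0 CPM in controls and at 23.0, 36.1 and 37.0 CPM in the mutant-labelled libraries. It has 816 bases of exon and was low in mutant replicate 1. Within SPF-552 alone its log2 fold change was 0.32 (adjusted p = 0.0475 by edgeR), where 1.56% of genes were called higher. Rps27l is a close copy of Rps27, and how the counting divided reads that match both is not given in the labels.

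The genes of arrest and growth restraint, called arrest genes for short, and the death genes were then compared library by library. The measure was the median over each group of log2 CPM minus the control mean. Cdkn1a, Plk2 and Sesn1 of the arrest genes did not stand higher, at log2 fold changes of 0.0048, -0.015 and -0.22. The arrest median therefore describes the list and is no measure of cell cycle arrest. The 7 tested arrest genes stood at 0.23, 0.29 and 0.40 in mutant replicates 1 to 3 and at 0.01, -0.07 and -0.04 in control replicates 1 to 3. The 15 death genes stood at 0.14, 0.12 and 0.12 in the mutant-labelled libraries and at 0.10, -0.0048 and -0.04 in controls. Arrest minus death was 0.09, 0.17 and 0.28 in the mutant-labelled libraries and -0.09, -0.06 and 0.00085 in controls, so every labelled mutant library lay above every control. These medians are descriptions with no test. The 4 arrest genes wholly above the controls are most of the 7, which fixes an arrest median above 0 in each mutant-labelled library. Arrest minus death therefore rests in part on those genes and is no separate support. The fitted log2 fold changes had medians of 0.34 for arrest and 0.13 for death genes. The arrest median is the value of Zmat3, the lowest of the 4 higher arrest genes, and without Zmat3 it was 0.20, with arrest minus death at 0.08 to 0.18 in the mutant-labelled libraries and -0.04 to -0.03 in controls. With the exon-length offset and all 7 arrest genes, the fitted medians lay closer together, at 0.27 for arrest and 0.18 for death genes. The scores by library were not recomputed with that offset.

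**Figure D3:**
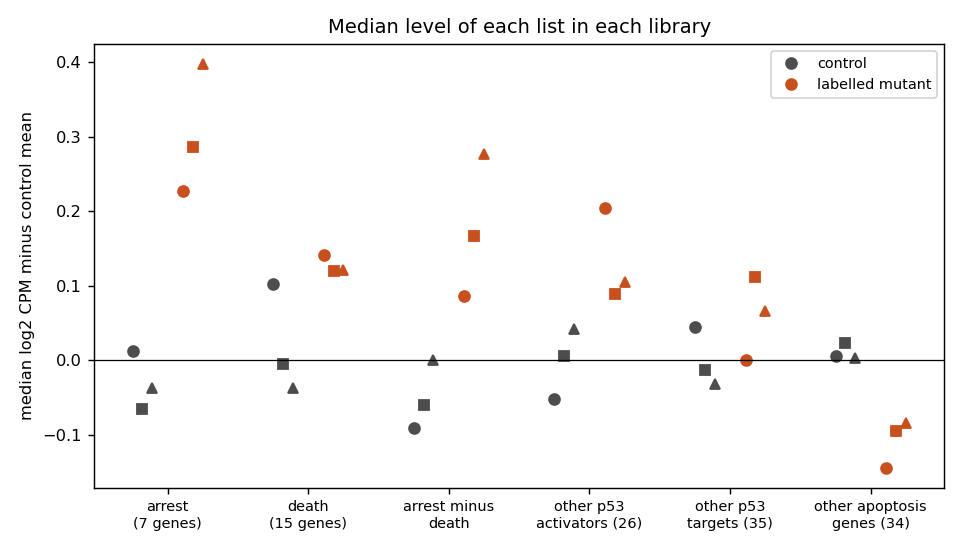
Median log2 CPM minus the control mean (y axis) of each gene list in each library. Circles, squares and triangles are replicates 1, 2 and 3. The arrest list stands at 0.23 to 0.40 in the mutant-labelled libraries and the death list at 0.12 to 0.14, against -0.07 to 0.01 and -0.04 to 0.10 in controls.

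Counted library by library, mutant replicates 1, 2 and 3 exceeded all 3 controls for 5, 4 and 4 of the 7 arrest genes, and for 8, 9 and 9 of the 15 death genes. The same held for 27.9% to 32.4% of all genes tested. The 4 arrest and 5 death genes that lay wholly above the controls count in every one of these libraries. These counts therefore repeat those genes and are no separate support. Values below all 3 controls were found for 1, 2 and 1 arrest genes and for 3, 1 and 3 death genes, against 34.4%, 28.2% and 27.7% of all genes tested.

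The 2 title numbers share no library, so the members can be read in each. Within SPF-539, which is 1 library against 1 and has no test, and within SPF-552, 13 of the 31 genes were above 0 in both, 4 were below 0 in both and 14 had opposite signs. Over all genes tested the shares were 26.3%, 27.0% and 46.7%, against 41.9%, 12.9% and 45.2% of the 31. The 8 genes at an unadjusted p under 0.05, which rests on the same libraries, and Trp53inp1 are 9 of the 13 above 0 in both. Every labelled mutant value of these 9 lay above every control, which fixes the sign in both title numbers. Their shared sign is therefore no separate support. Sesn2 had a log2 ratio of 0.93 in SPF-539 and 0.60 in SPF-552, Zmat3 0.32 and 0.35, Ccng1 0.25 and 0.45, and Aen 0.13 and 0.40. Cdkn1a, Bbc3, Bax, Phlda3 and Rps27l formed another set, at -0.44 to -0.34 in SPF-539 and 0.22 to 0.43 in SPF-552. They have 816 to 3553 bases of exon, and with the exon-length offset their log2 fold changes over all libraries were 0.036 to 0.21, while the split by title number was not refitted with it. The set was chosen after its values were seen.

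**Figure D4:**
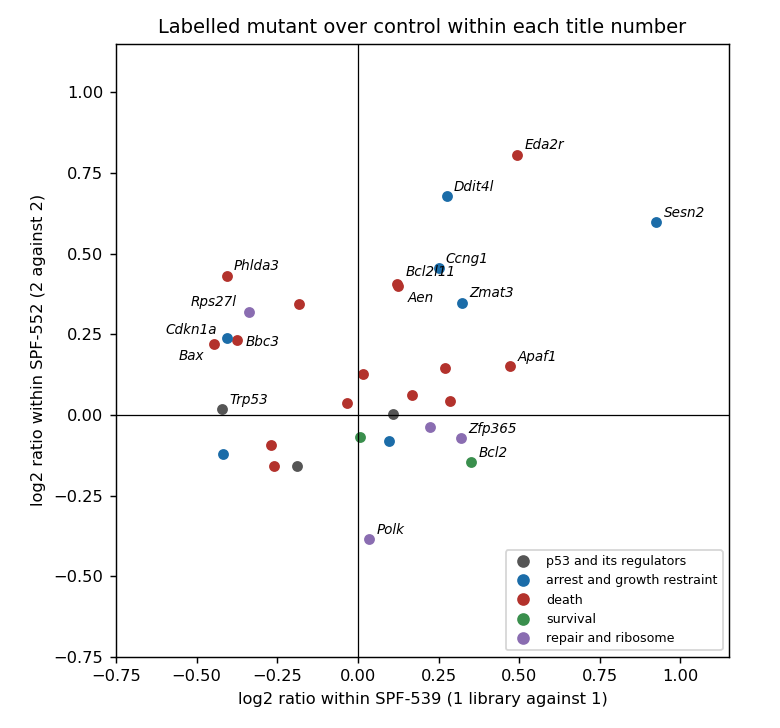
Log2 ratio of labelled mutant over control within SPF-539 (x axis, 1 library against 1) and within SPF-552 (y axis, 2 against 2), 1 point per tested gene, coloured by role. Sesn2, Eda2r, Ddit4l, Ccng1 and Zmat3 lie at the upper right, while Bax, Cdkn1a, Bbc3, Rps27l and Phlda3 lie at the upper left.

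Levels between genes were compared per kilobase of exon, as control mean CPM. Bax was highest at 42.0, followed by Rps27l at 35.8, Bcl2l1 at 30.8, Plk2 at 28.3 and Ei24 at 26.7. Trp53 stood at 19.8 and Mdm2 at 12.1. Ccng1 (9.31) and Sesn1 (9.16) differed by less than the spread between libraries, as did Bbc3 (6.27), Mdm4 (6.05) and Casp9 (5.99). The 8 genes named above lay from Ccng1 down, with Aen at 7.60, Apaf1 at 7.05, Zmat3 at 5.00, Sesn2 at 3.40, Bcl2l11 at 2.30, Ddit4l at 1.33 and Eda2r at 0.606. Below 1 stood also Pmaip1 (0.937), Tnfrsf10b (0.640), Fas (0.069) and Gdf15 (0.015).

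Other genes of the pathway were read from 3 further lists, none of whose 95 tested genes passed an FDR of 0.05. Of 26 tested genes that activate p53 or modify it, 6 stood higher at an unadjusted p under 0.05 and 1 lower, with a median log2 fold change of 0.14. That is 23.1% and 3.85%, against 5.22% and 4.38% of all genes tested. Hipk2, a kinase that phosphorylates p53, went from 143.8 ± 22.9 CPM in controls to 188.0 ± 6.89 CPM (SD, n = 3). The damage kinase Atr went from 35.9 ± 3.94 to 46.0 ± 1.81 CPM, and its relative Atm from 49.1 ± 5.88 to 61.1 ± 2.56 CPM. Rpl5, a ribosomal protein that can bind Mdm2, stood at 60.2 ± 4.30 in controls and 48.6 ± 3.14 CPM in the mutant-labelled libraries. Adjusted p-values of these 4 genes were 0.225, 0.230, 0.294 and 0.262 by edgeR. Atr and Atm have 23629 and 10338 bases of exon, in the longest decile of genes (from 9852 bases), which stood high in mutant replicate 1. Their log2 ratios were 0.56 and 0.55 within SPF-539 and 0.26 and 0.21 within SPF-552. Hipk2, with 8836 bases, had 0.69 and 0.25. Counts at an unadjusted p under 0.05 were not repeated with the exon-length offset for the further lists.

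Among 35 other p53 targets 6 (17.1%) stood higher and 1 (2.86%) lower at an unadjusted p under 0.05, against the same 5.22% and 4.38% of all genes, with a median of 0.08. The third sestrin gene, Sesn3, went from 145.5 ± 6.19 to 185.1 ± 27.7 CPM (log2 fold change 0.35), and the thiamine transporter gene Slc19a2 had a log2 fold change of 0.40. Ddit4, the relative of Ddit4l, had -0.24, and Notch1 had 0.23. Sesn3 and Notch1 have 15269 and 14232 bases of exon, also in the longest decile. Their log2 ratios were 0.53 and 0.38 within SPF-539 and 0.24 and 0.17 within SPF-552. Slc19a2, with 3838 bases, had 0.36 and 0.42. The list's medians in mutant replicates 1 to 3 were -0.00023, 0.11 and 0.07. Of 34 other genes of the apoptosis machinery 1 (2.94%) stood higher and 2 (5.88%) lower, shares near those of all genes. A log2 fold change above 0 was found for 8 (23.5%), against 49.9% of all genes, and one below 0 for 26 (median -0.07). Bok, a Bcl-2 family effector, had the lowest p, with controls at 34.8 ± 1.59 CPM and mutant-labelled libraries at 24.9 ± 0.304 CPM (log2 fold change -0.48, adjusted p = 0.0872 by edgeR). Tradd, an adaptor of TNF receptor 1, had -0.64, the receptor gene Tnfrsf1a had -0.31, and Birc6, an inhibitor of apoptosis, had 0.30. Birc6 has 25772 bases of exon, its groups overlapped, and its log2 ratio was 0.71 within SPF-539 and 0.086 within SPF-552.

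The authors' deposited table lists 369 genes up to an FDR of 0.0994, and 5 of the 33 genes are in it, all higher. In the authors' deposited table Sesn2 has a log2 fold change of 0.71 with an FDR of 0.00032, Zmat3 0.35 with 0.0205, Ccng1 0.40 with 0.0275, Aen 0.34 with 0.0709 and Eda2r 0.68 with 0.0783. Of all genes tested here, 1.06% are in the authors' deposited table as higher. Of the further lists, the authors' deposited table also holds Bok at -0.48 (FDR 0.00352), Hipk2 at 0.41 (FDR 0.0353), Sesn3 at 0.34 (FDR 0.0478) and Atr at 0.36 (FDR 0.095). Sap130 itself is listed there as higher, at 0.61 (FDR 6.5e-08). The table compares the same libraries, so it is no separate support.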

How the data were processed

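Per the labels' protocols, TruSeq RNA v2 libraries, which mark no strand, were made from DNase-treated total RNA. Tools in the submitters' processing notes are HTSeq 0.5.4p5, TopHat2 2.0.9 and edgeR 3.4.2, and the build is mm10 (GRCm38). Values in the deposited count table are estimated counts, unscaled, of each gene in each library. Between 22.7% and 24.9% of them are not whole, and no source used here names the tool behind them. A second deposited table, of the authors' own comparison, gives per gene a log2 fold change, a mean log2 CPM, a likelihood-ratio score, a p-value and an FDR.

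Identifiers were matched without version to GENCODE M21 symbols (34582 of 34866). Estimated counts were rounded and tested in R 4.3.3 with edgeR 4.0.16, after filterByExpr with minimum counts of 10 and a total of 15, TMM factors, robust quasi-likelihood fit, mutant against control over 6 libraries, Benjamini-Hochberg adjustment over all genes at an FDR of 0.05. CPM uses TMM-scaled library sizes, and log2 CPM a prior count of 2. Libraries varied by 12.3% (biological coefficient of variation), which gave log2 fold changes a median standard error of 0.125. The fit was tested on simulated data. The Sap130 genotype of the labels set the groups, and replicates were numbered by accession, which pairs nothing. Alternatives were RLE factors, library totals, DESeq2 1.42.0, no filter, an FDR of 0.1, the title number as a replicate block, the 4 SPF-552 libraries and each library left out in turn. After seeing the data 3 more were added, edgeR's likelihood-ratio test, an exon-length offset per library and the arrest list without Zmat3. Values are given in every library for genes at an unadjusted p under 0.05 and for Trp53, Mdm2, Cdkn1a, Bbc3, Bax, Casp9, Apaf1 and genes below the filter, and from each further list up to 4 genes by p. Members and lists were chosen with earlier results of these data known. Sesn1, Trp53inp1, Bcl2 and Rps27l were named or given in full after their values were seen. Figures were drawn with matplotlib 3.10.9.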

Additional observations from a re-analysis of the deposited data

How the results depend on the processing

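The medians of the arrest and death genes and the 8 genes above kept their direction in every alternative run, while the number of calls did not hold. Over all genes 21 passed, and 194 did with DESeq2, 130 without the filter, 116 with the title number as a replicate block, 564 in SPF-552 alone, 160 by edgeR's likelihood-ratio test, 68 with the exon-length offset, 56 at an FDR of 0.1 and 3 to 330 on leaving out 1 library (330 without mutant replicate 1). Of the 31 members 0 passed, and 2 did with DESeq2, 1 without the filter, 1 with the replicate block, 4 in SPF-552 alone, 2 by the likelihood-ratio test and 0 to 4 on leaving out 1 library. The replicate block changed no call of a member other than Sesn2. Of the other pathway lists 0 passed, and 2, 1, 1, 5 and 1 did in the same 5 fits, 1 at an FDR of 0.1 and 0 to 3 on leaving out 1 library. The median of the arrest genes was 0.27 with the exon-length offset and 0.20 without Zmat3, against 0.34. That of the death genes was 0.18 with the exon-length offset, 0.19 in SPF-552 alone and 0.060 to 0.18 on leaving out 1 library, against 0.13. Log2 fold changes near 0 turned sign, with Trp53 at 0.015, Bcl2 at -0.15, Ercc5 at -0.036 and Zfp365 at -0.061 in SPF-552 alone, Mdm4 at -0.052 and Bcl2 at -0.019 with the exon-length offset, and Cdkn1a at -0.0077 and Bbc3 at -0.0069 with library totals. On leaving out 1 library, signs turned over ranges of -0.061 to 0.11 for Mdm4, -0.097 to 0.19 for Cdkn1a, -0.15 to 0.062 for Plk2, -0.143 to 0.18 for Bbc3, -0.10 to 0.168 for Bax, -0.111 to 0.339 for Tnfrsf10b, -0.423 to 0.028 for Perp, -0.0022 to 0.373 for Phlda3, -0.073 to 0.348 for Pidd1, -0.0049 to 0.035 for Ei24, -0.15 to 0.153 for Bcl2, -0.020 to 0.107 for Ercc5 and -0.080 to 0.224 for Zfp365. None of these genes passed in any of these fits. The cause of these shifts was not tested. Depth did not allow a comparison of Fas and Gdf15.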
